A study of Danio rerio with 8 samples.

Results

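The meis and pbx genes encode homeodomain transcription factors, and their transcripts were followed in cells sorted from zebrafish embryos. All probe sets whose only platform gene symbol was meis or pbx followed by a digit were taken. They numbered 12 probe sets of 9 genes, out of 15502 probe sets without the manufacturer's controls. The genes were meis1a, meis1b, meis2a, meis2b, meis3, pbx1a, pbx2, pbx3b and pbx4, whereas pbx1b and pbx3a were not analysed here. The embryos, AB in background, were 35 hours post fertilization old and carried a cd41-GFP transgene, in which GFP follows the promoter of the integrin gene itga2b (cd41). That promoter is active in thrombocytes and in early blood stem and progenitor cells. GFP-positive cells were compared with GFP-negative cells of such embryos, with 4 arrays of each fraction that the titles number as 4 pairs. Both fractions are transgenic, and the GFP-negative fraction holds the other living cells of those embryos. Separate clutches are not stated for the pairs, so a p-value covers only the spread among these arrays, part of which may be technical.

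Meis and Pbx proteins belong to the TALE class of homeodomain proteins, which carry an extra loop in the homeodomain. Meis and Pbx bind each other and bind DNA together with Hox proteins, and Meis binding keeps Pbx in the nucleus. In the zebrafish hindbrain they act with Hox proteins in patterning the segments, and pbx4 (lazarus) is the main Pbx gene of the early embryo. In mice, Meis1 is needed for blood stem cells and for megakaryocytes, the mammalian counterparts of thrombocytes.

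Values are MAS5 signals, a summary of the brightness of a probe set on a linear scale, and levels of different genes were not compared by their signals. Signals of different probe sets were used together to choose the brightest probe set of a listed gene. They were also summed over marker lists, where the brightest weigh most. The 40th percentile of an array, 168 to 283 on GFP-positive and 203 to 222 on GFP-negative arrays, served as the line below which a probe set was called dim. The sorted gene itself, itga2b, was dim on all 8 arrays, at 34.3 to 144 in GFP-positive and 15.6 to 143 in GFP-negative cells, so it does not check the labels. The array's EGFP control was dim on all 8 arrays too, at 46.1 to 178 in GFP-positive and 33.2 to 37.3 in GFP-negative cells, and higher in 4 of 4 pairs by a mean of 1.09 on the log2 scale. The 9 probe sets of added spike-in controls ran the same way in 4 of 4 pairs, with mean differences of 0.86 to 1.31, so this does not check the labels either. Myeloid markers were high in the GFP-positive fraction, where 13 of 13 tested genes rose. Over all tested probe sets 13% were called higher. Of the myeloid genes, 2 had passed the filter on dim values through the GFP-positive arrays alone, and of the other 11 all rose. The array of GFP-positive replicate 3 correlated with the GFP-negative arrays at a mean r of 0.79, and the other GFP-positive arrays did so at 0.53 to 0.64. Within the GFP-positive fraction, replicate 1 was the least like the rest (mean r 0.73, against 0.83 to 0.87 for replicates 2 to 4). RNA shortening, read as the 3' over the 5' signal of GAPDH, was 31.3 to 99.95 on GFP-positive and 18.2 to 75.4 on GFP-negative arrays. In 4 of 4 pairs the GFP-positive array had the larger ratio. Its part in the results was not tested.

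Transcripts of 8 of the 9 meis and pbx genes were lower in GFP-positive than in GFP-negative cells, and pbx2 was the exception that did not pass the test. Of the 12 probe sets, 10 passed the filter on dim values, and 9 of these fell while 0 rose (limma, adjusted p under 0.05). Over all 9801 tested probe sets 18.4% were called lower and 13% higher. The GFP-positive array was the lower one in 4 of 4 pairs for 9 of the 10, against 31.8% of all tested probe sets. The median log2 difference of the 10 tested probe sets was -3.02, against -0.18 over all tested probe sets. The values of the fractions did not overlap, with GFP-positive cells lower, for 8 of the 10, against 19.9% of all tested probe sets. One probe set each of meis1a and pbx1a passed the filter through the GFP-negative arrays alone, so these counts and the median only describe the probe sets that passed. Of the other 8 tested probe sets, of 8 genes, 7 fell. In a fit with no filter, which held all 12 probe sets, 10 were called lower and 0 higher. Of all 15502, 1826 (11.8%) were called lower and 1380 higher in that fit. In a bulk sample, fewer cells of a type and less RNA per cell cannot be told apart.

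**Figure D1:**
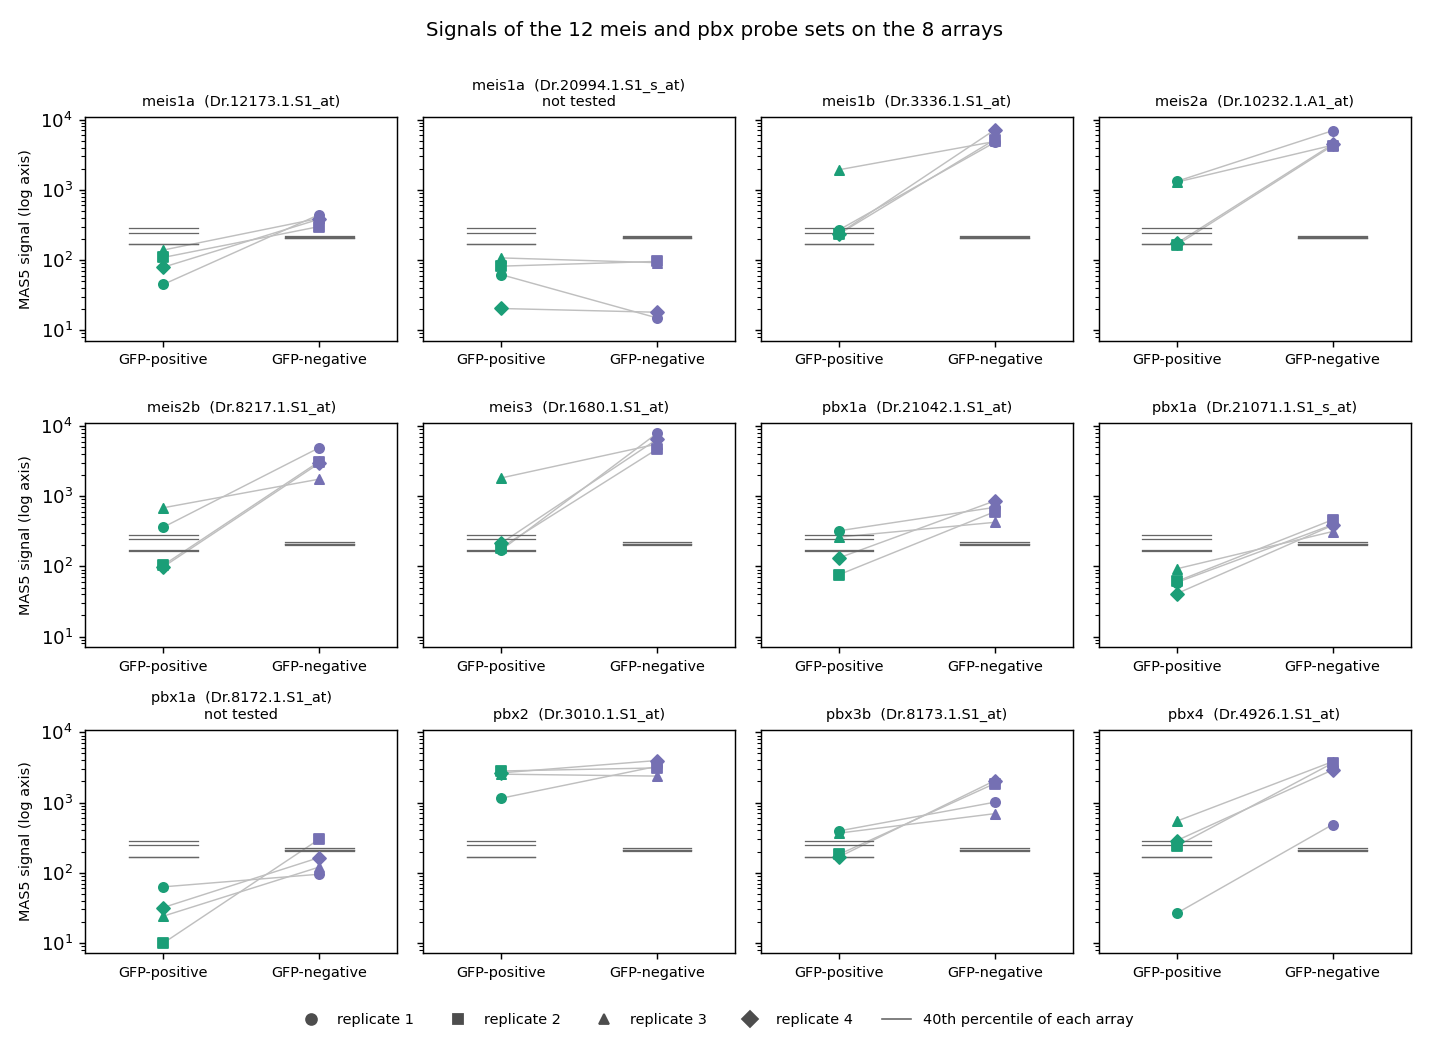
MAS5 signals (log axis) of the 12 meis and pbx probe sets in GFP-positive (green) and GFP-negative (purple) cells, with a marker shape for each replicate, grey lines joining pairs and short bars at each array's 40th percentile. The signals of pbx2 overlap at around the same height in both fractions, while those of meis1b, meis2a, meis2b and meis3 lie far higher in all GFP-negative arrays, and GFP-positive replicate 3 is the highest of its fraction for meis1b, meis2b and meis3.

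Among the meis genes, meis3, which acts in zebrafish hindbrain patterning, had the largest fitted difference. The signal of meis3 (probe set Dr.1680.1.S1_at) was 170.4, 186, 1817 and 214 in GFP-positive replicates 1 to 4, against 7852, 4677, 5528 and 6445 in GFP-negative replicates 1 to 4. Every GFP-negative array lay above every GFP-positive one, and replicate 3 stood out as high in the GFP-positive fraction. The log2 difference was -4.18 (SE 0.63, 95% interval -5.66 to -2.69, n = 4 pairs, limma adjusted p = 0.0053), or 18.1-fold lower. Without pair 3 the difference was 32.7-fold, and without pair 1, 2 or 4 it was 13.2-, 16.2- or 15.2-fold. Its size thus depended on the pairs, while its direction did not. Of the 4 GFP-positive arrays, 3 were above the dim line.

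The meis1 paralogues were both lower. In mice the Meis1 gene is needed for blood stem cells. The signal of meis1b (Dr.3336.1.S1_at) was 268, 234, 1929 and 237 in GFP-positive replicates 1 to 4, against 4736, 5192, 4875 and 7162 in GFP-negative replicates 1 to 4. It fell by 3.72 on the log2 scale (SE 0.59, limma adjusted p = 0.0062), and 3 GFP-positive arrays were above the dim line. This is a 13.2-fold difference, which became 22.8-fold without pair 3 and 9.97- to 11.9-fold without another pair. The signal of meis1a (Dr.12173.1.S1_at) was 45.0, 109, 139 and 79.1 in GFP-positive replicates 1 to 4, against 444, 299.95, 393 and 383 in GFP-negative replicates 1 to 4. All GFP-positive values of meis1a were dim, so its difference is given as at least 1.78-fold lower. It passed the filter only through the GFP-negative arrays, and its test is therefore taken from the fit with no filter (limma adjusted p = 0.015). With the filter, leaving out pair 4 lost the call (adjusted p = 0.063).

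The other meis1a probe set, Dr.20994.1.S1_s_at, failed the filter. Its suffix is the manufacturer's mark for probes that can match more than one transcript. It read 62.1, 81.8, 107 and 20.4 in GFP-positive replicates 1 to 4, against 15.0, 95.7, 91.7 and 18.1 in GFP-negative replicates 1 to 4. These values overlap and are dim on all 8 arrays, so this probe set carries no measured difference. In a fit with no filter its log2 difference was 0.56 (SE 0.59, limma adjusted p = 0.54), opposite in sign to the other meis1a probe set.

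The meis2 paralogues, also homeodomain partners of Pbx, were both lower. The signal of meis2a (Dr.10232.1.A1_at) was 1317, 163, 1284 and 173 in GFP-positive replicates 1 to 4, against 6939.9, 4249.8, 4310.5 and 4435 in GFP-negative replicates 1 to 4. GFP-positive replicates 1 and 3 were both high and replicates 2 and 4 both low, and no GFP-positive value reached the GFP-negative ones. The log2 difference was -3.38 (SE 0.56, limma adjusted p = 0.0072), or 10.4-fold lower, with 3 GFP-positive arrays above the dim line. The signal of meis2b (Dr.8217.1.S1_at) was 362, 104, 684 and 98.6 in GFP-positive replicates 1 to 4, against 4904, 3117, 1749.6 and 2949.8 in GFP-negative replicates 1 to 4. Since it was dim on 2 of 4 GFP-positive arrays, meis2b was at least 10.3-fold lower (log2 difference -3.73, SE 0.60, limma adjusted p = 0.0068). Leaving out pair 3 moved the fitted fold of meis2a to 15.2 and that of meis2b to 23.0, against 13.3 for meis2b over all pairs. Leaving out another pair gave 7.69 to 13.1 for meis2a and 10.1 to 13.2 for meis2b.

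Of the Pbx genes, pbx4 had the smallest standard error in the fit that pairs the arrays. In the fit without pairing it had the largest (SE 0.96, limma adjusted p = 0.021). The signal of pbx4 (Dr.4926.1.S1_at) was 26.4, 239.6, 541 and 287 in GFP-positive replicates 1 to 4, against 485, 3639, 3819 and 2911 in GFP-negative replicates 1 to 4. Replicate 1 was low in both fractions, so the groups overlapped at the GFP-positive replicate 3 value of 541 and the GFP-negative replicate 1 value of 485, whereas within each pair the GFP-positive array was lower. The log2 difference was -3.57 (SE 0.33, 95% interval -4.35 to -2.79, limma adjusted p = 0.0012), or 11.9-fold lower, and its 4 pair differences ran from -4.20 to -2.82. Of the GFP-positive arrays, 3 were above the dim line. Replicate 1, at 26.4 against a line of 283, was not. The pair 1 difference of -4.20 therefore rests on a dim signal, which the fitted fold and its standard error also use. Without pair 1 the fitted fold was 10.3 (limma adjusted p = 0.0027).

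pbx3b, which encodes another Pbx partner of Hox proteins, was lower as well. The signal of pbx3b (Dr.8173.1.S1_at) was 394, 182, 367 and 168 in GFP-positive replicates 1 to 4, against 1011, 1866, 695 and 2052 in GFP-negative replicates 1 to 4. The fractions did not overlap, and the difference was smaller in pairs 1 and 3 than in pairs 2 and 4. It fell by 2.31 on the log2 scale (SE 0.52, limma adjusted p = 0.017), with 3 GFP-positive arrays above the dim line. That call was lost without pair 2 (adjusted p = 0.067) or pair 4 (adjusted p = 0.072).

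pbx1a had 3 probe sets, of which 2 were tested and both fell. Dr.21042.1.S1_at read 321, 76.0, 261 and 132 in GFP-positive replicates 1 to 4, against 693, 601, 424 and 857 in GFP-negative replicates 1 to 4. It was dim on 2 GFP-positive arrays and at least 2.82-fold lower (limma adjusted p = 0.026), a call lost without pair 2 (adjusted p = 0.10) or pair 4 (adjusted p = 0.11). Dr.21071.1.S1_s_at carries the suffix for probes that can match more than one transcript. It read 58.9, 61.1, 92.3 and 40.9 in GFP-positive replicates 1 to 4, against 392, 461, 314 and 384 in GFP-negative replicates 1 to 4. All its GFP-positive values were dim, so it was at least 1.82-fold lower, and, as it passed the filter only through the GFP-negative arrays, its test is that of the fit with no filter (limma adjusted p = 0.0054). The untested Dr.8172.1.S1_at read 63.0, 9.97, 24.1 and 32.0 in GFP-positive replicates 1 to 4, against 95.4, 301, 121 and 165 in GFP-negative replicates 1 to 4. Only GFP-negative replicate 2 was above the dim line there, so it carries no measured fold, although the fit with no filter called it lower (limma adjusted p = 0.039).

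pbx2 was measured well above the dim line in both fractions. The signal of pbx2 (Dr.3010.1.S1_at) was 1151, 2813, 2536 and 2646 in GFP-positive replicates 1 to 4, against 3279, 3112, 2381 and 3968 in GFP-negative replicates 1 to 4. The fractions overlapped, and pair 3 ran the other way by a small amount. The log2 difference of -0.54 did not pass the test (SE 0.34, 95% interval -1.34 to 0.27, limma adjusted p = 0.26), and the interval holds falls of over 1 log2 unit, so equal levels are not shown.

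**Figure D2:**
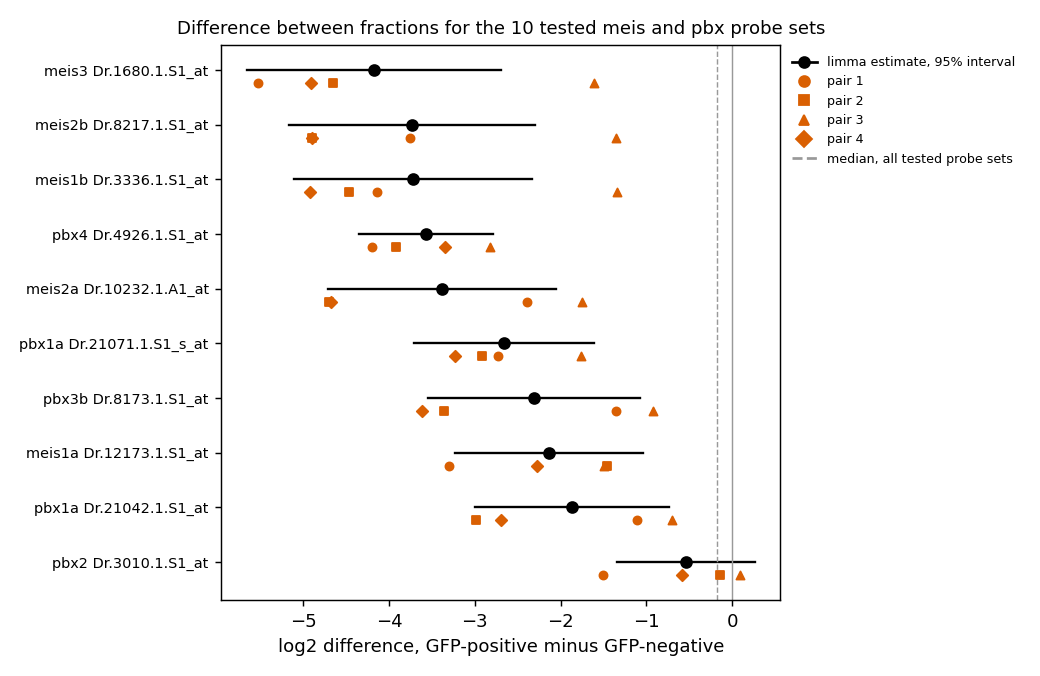
Log2 difference, GFP-positive minus GFP-negative, for each tested probe set as the limma estimate with its 95% interval (black) and the 4 pair differences (orange), with a dashed line at the median of all tested probe sets, -0.18. All intervals but that of pbx2 lie below 0, and the pair 3 difference is the one nearest 0, or the only one above it, in 9 of the 10 rows, the exception being meis1a, where pair 2 is slightly nearer.

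The size of the difference was set between members in each family, and between probe sets of a gene, over the 4 pairs. With 4 pairs an exact sign-flip permutation test (two-sided) cannot go below p = 0.125, so none of the 20 comparisons could pass, and the adjusted p ran from 0.42 to 0.88. The difference of pbx2 was above that of pbx4 in all 4 pairs, by 3.03 on the log2 scale (2.69 to 3.78 over the pairs, exact p = 0.125). The difference of meis1b minus that of meis3 was 0.46 (-0.0049 to 1.38 over the pairs, exact p = 0.25), and that of meis1b minus that of meis2a was -0.34 (-1.75 to 0.41, exact p = 0.75). For pbx2 minus pbx3b the gap was 1.78 (-0.15 to 3.21 over the pairs, exact p = 0.25). For pbx3b minus pbx4 it was 1.26 (-0.27 to 2.84, exact p = 0.25), and for meis2a minus meis3 it was 0.79 (-0.14 to 3.13, exact p = 0.5). Each of the genes in these comparisons was dim on at most 1 GFP-positive array. That array was replicate 1 for meis1b, meis3 and pbx4, replicate 2 for meis2a and replicate 4 for pbx3b. The gaps of these genes in those pairs rest on dim signals. No gap is given for meis1a, meis2b or pbx1a, which were dim on 2 or more.

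The other TALE genes, which include the Meis-related pknox (Prep) genes and the Iroquois genes, were counted from a fixed list. Of 18 listed, 11 were on the array and 8 tested, of which 7 fell and 0 rose, with a median of -3.02. Of all tested probe sets 18.4% were called lower and 13% higher. The broadly used pknox1.1 was the one that did not pass, with geometric mean signals of 2238 in GFP-positive and 3027 in GFP-negative cells (log2 difference -0.44, SE 0.32, limma adjusted p = 0.32). Its relative pknox2 was at least 4.63-fold lower by one probe set (limma adjusted p = 0.012), while another, dim on all arrays, was not tested. The TGF-beta-linked repressor gene tgif1 fell by 2.66 (SE 0.40). The Iroquois gene irx3a fell by 3.38 (SE 0.60), and irx5a was at least 5.12-fold lower. These were the genes with the smallest p in the list.

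Hox genes encode the partners of Meis and Pbx. Of 42 hox genes on the array 21 were tested, of which 15 fell and 0 rose, with a median of -2.80. The shares of all tested probe sets were 18.4% lower and 13% higher. Through the arrays of 1 fraction alone, 3 of these passed the filter by GFP-negative and 1 by GFP-positive cells, and of the other 17 genes 12 fell and 0 rose, with a median of -3.46. In the fit with no filter, 17 of all 42 were called lower and 1 higher, against 1826 (11.8%) lower and 1380 higher of all 15502 probe sets. The anterior gene hoxa2b was at least 5.45-fold lower. Another anterior gene, hoxa3a, was at least 3.82-fold lower, and hoxb3a was at least 17.6-fold lower. The posterior gene hoxb9a fell by 3.83 (SE 0.62, limma adjusted p = 0.0069). Some hox genes ran the other way. The signal of hoxb7a was above the dim line on the 4 GFP-positive arrays only and higher in 4 of 4 pairs, but did not pass (log2 difference 1.04, SE 0.45, limma adjusted p = 0.12). The untested hoxb8b was above the line on 3 GFP-positive and 0 GFP-negative arrays and also higher in 4 of 4 pairs. The hox gene called higher with no filter was hoxa1a (limma adjusted p = 0.036), which was dim on all 8 arrays.

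Genes known to act with or under Meis and Pbx in zebrafish, listed from background knowledge, moved both ways. Of 14 listed, 9 were tested, 6 fell and 1 rose, against 18.4% lower and 13% higher of all tested probe sets. The gene that rose was spi1b, which encodes the myeloid factor Pu.1 (log2 difference 5.08, SE 0.38, limma adjusted p = 0.00064). The Eph receptor gene epha4a, marking hindbrain segments, was at least 13.0-fold lower, and the myogenic factor gene myog at least 2.98-fold lower. The erythroid factor gene gata1a fell by 1.62 (SE 0.31). The eye and brain factor gene pax6a fell by 3.28 (SE 0.66), the cell cycle gene ccnd1 fell by 1.91 (SE 0.43) and the heart factor gene hand2 fell by 2.07 (SE 0.39). The cell growth gene myca did not pass (log2 difference -0.58, limma adjusted p = 0.23). The hindbrain gene egr2b did not pass either, at 665 in GFP-positive and 856 in GFP-negative cells by geometric mean signal (log2 difference -0.36, limma adjusted p = 0.37). In a wider list of blood regulators 3 of 9 tested genes rose and 4 fell, against 13% higher and 18.4% lower of all tested probe sets.

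Several lists of tissue markers fell as the meis and pbx genes did, and their part in the result was not tested. Over all tested probe sets 18.4% were called lower and 13% higher. All 16 tested neural markers fell, with summed signals of 2988 to 38422 in GFP-positive and 91338 to 117229 in GFP-negative cells. Muscle markers fell in 11 of 12 cases, with sums of 1920.1 to 6861 in GFP-positive and 44752 to 114308 in GFP-negative cells. Mesenchyme and matrix markers fell in 9 of 9, with sums of 1968 to 7397 in GFP-positive and 20651 to 27889 in GFP-negative cells. Pronephros markers fell in 4 of 4 tested, endothelial markers in 3 of 5 and erythroid markers in 8 of 12. The erythroid sums overlapped, at 247515 to 319232 in GFP-positive and 196139 to 351901 in GFP-negative cells. The brightest erythroid genes, hbae3 and hbbe3, ran higher in GFP-positive cells. Neither passed (log2 differences 0.77 and 0.33, limma adjusted p = 0.13 and 0.54). Epidermal markers fell in 2 of 8, near the share of all tested probe sets. None of the tested genes in these lists rose. Of 8 pronephros genes on the array, only 4 were tested, and irx1a among them is also one of the other TALE genes. In the fit with no filter, the untested cdh17, pax8 and hnf1bb ran higher in GFP-positive cells (log2 differences 0.57, 0.97 and 0.51). The untested atp1a1a.4 ran lower (-1.13), and none of these passed (limma adjusted p 0.27 to 0.47). Of the fallen markers, 1 neural, 1 muscle and 2 mesenchyme and matrix genes had passed the filter through the GFP-negative arrays alone. Without them 15 of 15 neural, 10 of 11 muscle and 7 of 7 mesenchyme and matrix markers fell. The 12 housekeeping genes rose in 2 cases, near the share of all tested probe sets, and fell in 0.

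The size of the fall varied over the pairs, and these values are a description since all lists share the same arrays. The median log2 difference of the 5 meis genes was -3.76, -4.66, -1.50 and -4.90 in pairs 1 to 4, and that of the 4 pbx genes was -1.44, -3.17, -0.81 and -3.02. The meis median in pair 3 is the value of meis1a, dim on GFP-positive replicate 3 (139 against a line of 245). The other meis genes, above the line on that array, gave -1.75 to -1.34 in pair 3. The meis median in pair 4 is the value of meis2b, dim on GFP-positive replicate 4 (98.6 against 170). The pbx medians in pairs 2 and 4 use pbx1a, dim on those GFP-positive arrays (76.0 and 132). The 16 neural markers gave -2.97, -5.35, -1.52 and -4.74 in pairs 1 to 4. In each of these 3 lists pairs 2 and 4 had larger falls than pairs 1 and 3, and pair 3 had the smallest. The lists of other TALE genes, hox genes, mesenchyme and matrix markers and pronephros markers had that order too. Muscle markers, at -5.89, -5.64, -2.76 and -4.74 in pairs 1 to 4, shared only the small fall in pair 3. Erythroid markers, at -1.86, -1.14, -2.33 and -0.88 in pairs 1 to 4, did not follow that order. Without pair 3 the count of meis and pbx probe sets called lower was 9, as in the full fit, and with only GFP-positive replicate 3 left out of an unpaired fit it was also 9.

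**Figure D3:**
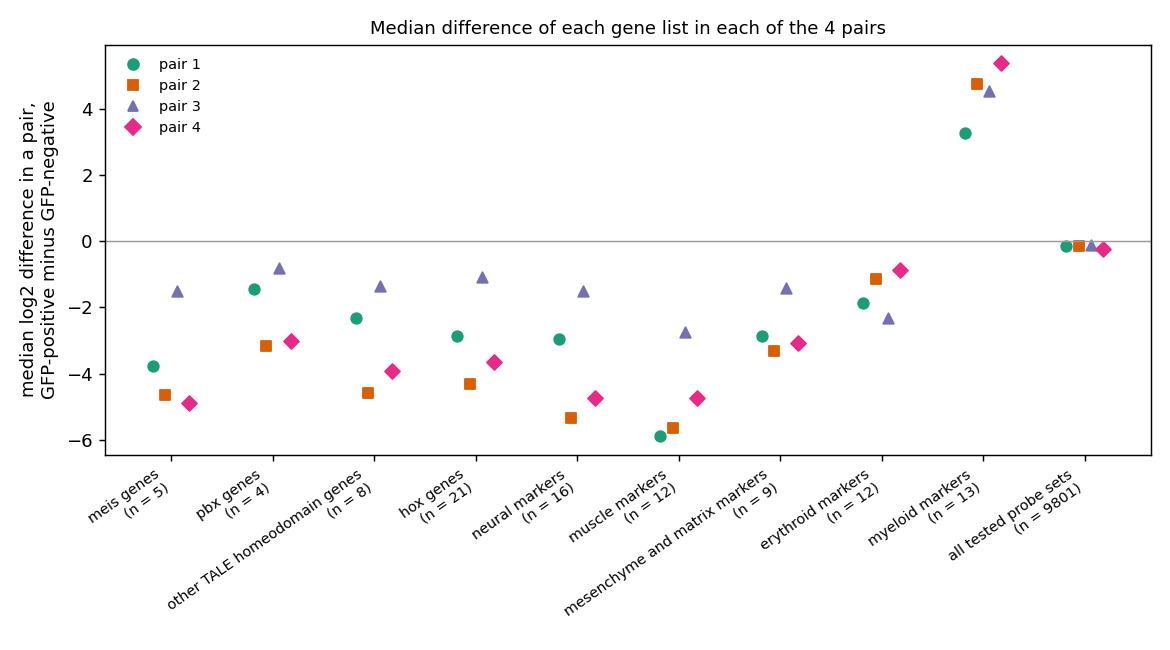
Median log2 difference, GFP-positive minus GFP-negative, of each gene list in each of the 4 pairs, with the number of genes under each name. In pair 3 (triangles) the medians of the meis, pbx, hox, neural, muscle and mesenchyme lists are nearer 0 than in the other pairs, the erythroid median is farther from 0, and myeloid markers are above 0 in all 4.

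The genes whose pattern over the 8 arrays was most like that of meis1b were sought among 7365 tested probe sets with a symbol, by Pearson's r of the log2 signals. They included nr2f2, a nuclear receptor (r = 0.996), the noncoding RNA oip5-as1 (r = 0.995), marcksa, a membrane-associated kinase substrate (r = 0.994), and rab3c, a vesicle traffic gene (r = 0.994). For meis1a they were paxip1 (r = 0.995), sp5a (r = 0.994), pithd1 (r = 0.993), cdca7a (r = 0.993) and msl1b (r = 0.991). All of these named probe sets were called lower in GFP-positive cells, but another marcksa probe set and both other msl1b probe sets were not called. GFP-positive signals were dim on 3 of 4 arrays for sp5a and rab3c, and on all 4 for meis1a itself. The arrays fall into 2 fractions, which set most of these values, so the r describes these 8 arrays only.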

How the data were processed

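Intensities were deposited as MAS5 signals, per the submitters' processing notes, on a linear scale with 1 value for a probe set on an array; its version is not given in the sources here. Per the labels' protocols, RNA of sorted cells went through 2 rounds of linear amplification, which shortens transcripts toward the 3' end. The mean without the lowest and highest 2% of probe sets was 1500.3 to 1500.5 on all 8 arrays, so the values were used as deposited. Scanner files were not used here.

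Signals were taken to log2 without a pseudocount. Of 15617 probe sets 115 were controls and stayed out of tests, and names came from the platform annotation with symbols updated by gene identifier (10802 with 1 symbol, 135 with several, 4680 with none). Tested were probe sets whose signal exceeded the array's 40th percentile on 4 or more of the 8 arrays. Differences were fitted with limma 3.58.1 in R 4.3.3 (variance trend, replicate block, two-sided) and p-values were adjusted (Benjamini-Hochberg, all 9801 tested probe sets, threshold 0.05), and the script was tested on simulated data. The block was used because the design text pairs the fractions; in the data the correlations of deviations within pairs were 0.40, 0.26, 0.18 and -0.12. A probe set dim on at least 2 of 4 arrays of the lower fraction has its fold given as "at least", with that fraction set on each array to the higher of the percentile and the signal. The bounds leave out the spread between arrays. Of several probe sets of a listed gene, the one with the highest mean signal was used. Named are all members, the 5 genes most like meis1a and meis1b (for meis1b the first of them is not reported here), and up to 4 genes of a list with the smallest p; genes named beyond that (pknox1.1, hoxb7a, hoxb8b, hoxa1a, pax6a, ccnd1, hand2, myca and egr2b) were chosen after their values were seen. The members and lists were chosen with earlier results of these data known. No sequences or coordinates are given because no genome build is stated. With 4 arrays a fraction, their number limits the precision. Alternatives were 13 planned and 1 chosen after seeing the data, leaving out GFP-positive replicate 3 in an unpaired fit.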

Additional observations from a re-analysis of the deposited data

Results flagged for a closer look

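In each fraction of 4 arrays, a signal was singled out if its gap to the nearest other, as a share of the range of log2 signals, passed Dixon's 95% critical value, which chance does in about 1 in 20 groups. Of 24 groups read, 5 did. For meis1b the GFP-positive replicate 3 value of 1929 stood above the others, 234 to 268 (share 0.937). For meis3 the same array read 1817, against 170.4 to 214 on the others (share 0.904). For meis2a GFP-negative replicate 1 read 6939.9, above 4249.8 to 4435 (share 0.913). For pbx2 GFP-positive replicate 1 read 1151, below 2536 to 2813 (share 0.884). For pbx4 GFP-negative replicate 1 read 485, below 2911 to 3819 (share 0.868).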

How the results depend on the processing

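The count of meis and pbx probe sets called lower was 9 under every alternative of scaling, pseudocount, block and variance trend that was run. Scaling to the spike-in controls, which ran higher in GFP-positive cells, was not tested for pbx2 or any other member. With no filter the count was 10 of 12 tested, and with the filter at the 60th percentile 5 of 6, because fewer probe sets were tested. Leaving out a pair gave 6 to 9. No member changed direction, and none was called higher, under any of the 14 alternatives in which it was tested. The calls lost were those of meis1a without pair 4, and of pbx1a (Dr.21042.1.S1_at) and pbx3b without pair 2 or 4; pbx2 was not called under any, with an adjusted p of 0.054 to 0.55. Over all tested probe sets 1273 were higher and 1805 lower, against 829 and 2740 after housekeeping centring and 1191 and 1688 with no replicate block, which changed no member's call. Leaving out a pair gave 646 to 1466 higher and 659 to 2027 lower. The median log2 difference of all tested probe sets was -0.18, and -0.53 after housekeeping centring. Signals near background limit meis1a, meis2b and pbx1a, whose GFP-positive values were dim on 2 to 4 of 4 arrays. They also bear on the folds of meis1b, meis2a, meis3, pbx3b and pbx4, which were above the dim line on 3 of 4 GFP-positive arrays, some of them narrowly. On GFP-positive replicate 4, meis2a read 173 against a line of 170. With 100 added to each signal, the log2 differences of these 5 genes were -3.36, -3.02, -3.72, -1.94 and -2.81. Each was a smaller fall than in the main fit, which adding a constant brings about by arithmetic, so it does not test the background.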
